A study of Schizosaccharomyces pombe with 24 samples.

Results

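The heat shock chaperone genes described here are 10 protein-coding genes of fission yeast, chosen by name: the small heat shock protein gene hsp16 (SPBC3E7.02c), the disaggregase genes hsp104 (SPBC16D10.08c) and hsp78 (SPBC4F6.17c), the Hsp70 genes ssa1 (SPAC13G7.02c), ssa2 (SPCC1739.13) and sks2 (SPBC1709.05), the J protein genes psi1 (SPCC830.07c) and mas5 (SPBC1734.11), hsp90 (SPAC926.04c), and its co-chaperone gene sti1 (SPCC645.14c). They are 10 of the 6988 genes in the count table. All 10 passed the filter on low counts that left 6287 genes for testing, and each had between 1672 and 215014 reads in every library.

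The data are read counts from polyA+ RNA-seq of haploid Schizosaccharomyces pombe in log phase in rich YES medium at 30 °C, with 3 biological replicates in each of 8 groups. The 7 mutants each carry an amino acid change in a subunit of the machinery that cleaves pre-mRNA and adds its poly(A) tail. Strains pta1-T524M, pfs2-V180F, msi2-G252E, ysh1-L74F and pfs2-E104A are h- and also carry a kanMX marker at a wild-type copy of asp1 (asp1-WT::kanMX). Strain pla1-Y86L is h- with a kanMX marker at pla1, cft1-L249Q is h+ with no marker named, and the control (WT) is h- with no mutation or marker named. Against WT, a mutation therefore cannot be told apart from its marker, nor in cft1-L249Q from mating type. The same holds between mutants that differ in marker or mating type, as where cft1-L249Q or pla1-Y86L is compared with another mutant. The pfs2-V180F and pfs2-E104A strains share mating type and marker. No culture was heated, per the labels, so the levels are those of growth at a constant temperature. The libraries held 19.4 to 29.3 M counts, and the common biological coefficient of variation was 4.9%. RNA came from whole cultures, so a change in the share of cells that express a gene cannot be told apart from a change per cell.

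Heat shock proteins bind unfolded proteins and keep them from aggregating. Small heat shock proteins hold unfolded clients, Hsp104-type ATPases pull them out of aggregates, and Hsp70 folds them in cycles driven by J proteins and nucleotide exchange factors. Hsp90 acts on late folding intermediates, handed over from Hsp70 by the Sti1 (Hop) adaptor. In yeasts the transcription factor Hsf1 drives many of these genes, and the stress-activated Sty1 pathway adds to hsp16 and to a wider set of stress genes.

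Mutants pta1-T524M, pfs2-V180F and cft1-L249Q had higher mRNA levels of most of the 10 genes than WT, and the other 4 mutants had mixed changes. In pta1-T524M, 9 of the 10 genes rose and 1, sks2, fell (edgeR quasi-likelihood test, Benjamini-Hochberg adjusted p under 0.05 over all genes tested). For all genes tested, 18.7% were called higher and 19.8% lower in that comparison. In pfs2-V180F 8 genes rose and sks2 fell, where 24.1% of all genes were called higher and 24% lower. In cft1-L249Q 7 genes rose and sks2 fell, against 22.3% and 21.0% of all genes. The median log2 fold change of the 10 genes was 0.98 in pta1-T524M, 0.71 in pfs2-V180F and 0.52 in cft1-L249Q. The median over all genes lay between -0.0113 and 0.00575 in the 7 comparisons with WT. At least 2-fold higher were 4 of the 10 genes in pta1-T524M (1.22% of all genes), 2 in pfs2-V180F (2.47%) and 2 in cft1-L249Q (1.67%).

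In the remaining mutants 1 to 3 of the 10 genes rose in the fit to all libraries. In msi2-G252E 2 genes rose and 4 fell, where 29.3% of all genes were called higher and 29.5% lower. With libraries scaled by their totals alone, 4 were higher and 2 lower there. In ysh1-L74F 3 genes rose and none fell, against 7.57% and 6.84% of all genes. The 3 were hsp16, hsp78 and psi1, and by DESeq2 sti1 was also called higher and sks2 lower, which made 5 calls. In pfs2-E104A 1 gene, hsp78, rose and 4 fell, against 18.1% and 16.1% of all genes. With the test fitted to those 2 groups alone the number called there was 8, of which 3 were higher. In pla1-Y86L 3 genes rose and 2 fell, against 32.2% and 32.4% of all genes. Without WT replicate 2, the number called in pla1-Y86L was 3, and with library totals alone 7, of which 5 were higher. The median log2 fold changes of the 10 genes were -0.12 in msi2-G252E, 0.11 in ysh1-L74F, 0.03 in pfs2-E104A and 0.06 in pla1-Y86L. Over the 7 mutants, 46 of the 70 differences from WT were called, of which 33 were higher and 13 lower. All 70 use the same 3 WT libraries, so they are not independent. They are to be read beside the shares of all genes given for each mutant.

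**Figure D1:**
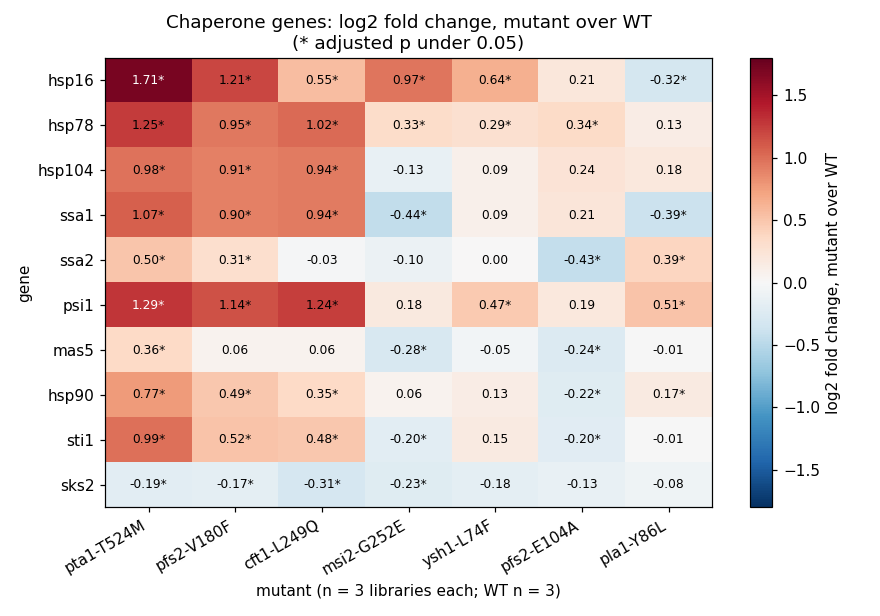
Log2 fold change of each of the 10 genes (rows) in each mutant over WT (columns), from the edgeR fit to all 24 libraries; red is higher and blue lower in the mutant, and an asterisk marks an adjusted p under 0.05. The 3 columns on the left hold most of the red, with hsp16 in pta1-T524M at 1.71, and the sks2 row at the bottom is the one row with no value above 0.

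The small heat shock protein gene hsp16 had the widest range of the 10 genes. Its level, as read counts scaled by library size and TMM factor (CPM), was 315.6, 332.3 and 280.1 in the 3 pta1-T524M libraries. It was 237.1, 215.5 and 204.0 CPM in pfs2-V180F, and 137.1, 153.5 and 125.8 CPM in cft1-L249Q. The msi2-G252E libraries had 195.7, 183.5 and 176.1 CPM and the ysh1-L74F libraries 143.9, 149.0 and 148.5 CPM. All 15 of these libraries lay above the 3 WT libraries. The pfs2-E104A libraries had 93.7, 108.3 and 126.1 CPM, the pla1-Y86L libraries 74.2, 71.9 and 80.9 CPM, and the WT libraries 77.2, 106.9 and 99.6 CPM, so both of those mutants overlapped WT. The log2 fold change of hsp16 was 1.71 ± 0.10 (SE) in pta1-T524M, a 3.27-fold higher level (edgeR adjusted p = 9.1e-12). It was 1.21 ± 0.10 in pfs2-V180F (edgeR adjusted p = 2.4e-09) and 0.97 ± 0.10 in msi2-G252E (edgeR adjusted p = 3.3e-08). Smaller rises were called in ysh1-L74F, at 0.64, and in cft1-L249Q, at 0.55. The only mutant of the 7 in which hsp16 was called lower was pla1-Y86L, at -0.32 ± 0.11 (edgeR adjusted p = 0.01), and without WT replicate 2 it was -0.22 (edgeR adjusted p = 0.086).

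Ordered by mean level, hsp16 ran through pta1-T524M, pfs2-V180F, msi2-G252E, ysh1-L74F, cft1-L249Q, pfs2-E104A, WT and pla1-Y86L. Of the 7 neighbouring pairs in that order, 5 differed. The exceptions were ysh1-L74F and cft1-L249Q, 0.08 apart on the log2 scale (edgeR adjusted p = 0.59), and pfs2-E104A and WT, 0.21 apart (edgeR adjusted p = 0.13). Of all genes, counted in either direction, 55.1% were called between pfs2-V180F and msi2-G252E, 53.7% between msi2-G252E and ysh1-L74F, 22.3% between ysh1-L74F and cft1-L249Q, and 39.4% between cft1-L249Q and pfs2-E104A. The msi2-G252E strain ranked just behind pta1-T524M and pfs2-V180F for hsp16, although it had the lowest mean level of hsp104, ssa1 and mas5.

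Both disaggregase genes were higher than WT in pta1-T524M, pfs2-V180F and cft1-L249Q. For hsp104, the AAA+ ATPase that with Hsp70 dissolves aggregates in the cytosol, the libraries had 234.9, 197.8 and 165.7 CPM in pta1-T524M, 209.1, 205.5 and 158.2 CPM in pfs2-V180F, and 195.3, 200.4 and 185.9 CPM in cft1-L249Q. The WT libraries had 95.3, 109.9 and 98.8 CPM. The ranges of the 3 mutants lay above that of WT, and their fold changes were 1.97, 1.88 and 1.91, which is 0.98, 0.91 and 0.94 on the log2 scale (edgeR adjusted p at most 2.9e-07). Between these 3 mutants hsp104 did not pass the test in any pair, with log2 differences of at most 0.06. In the other 4 mutants hsp104 was between -0.13 and 0.24 from WT on the log2 scale, and none was called.

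Expression of hsp78, the mitochondrial relative of Hsp104, was the most widely raised. It was 436.2, 371.9 and 340.8 CPM in pta1-T524M, 316.7, 329.6 and 329.2 CPM in cft1-L249Q, and 161.1, 159.6 and 161.0 CPM in WT. The log2 fold changes were 1.25 ± 0.07 in pta1-T524M (edgeR adjusted p = 1e-12), 1.02 ± 0.07 in cft1-L249Q and 0.95 ± 0.07 in pfs2-V180F. It also rose by 0.33 in msi2-G252E, 0.29 in ysh1-L74F and 0.34 in pfs2-E104A, the only gene of the 10 called higher in 6 mutants. In pla1-Y86L hsp78 was 0.13 above WT (edgeR adjusted p = 0.099). Every mutant library, from 168.1 CPM upward, was above the highest WT library.

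**Figure D2:**
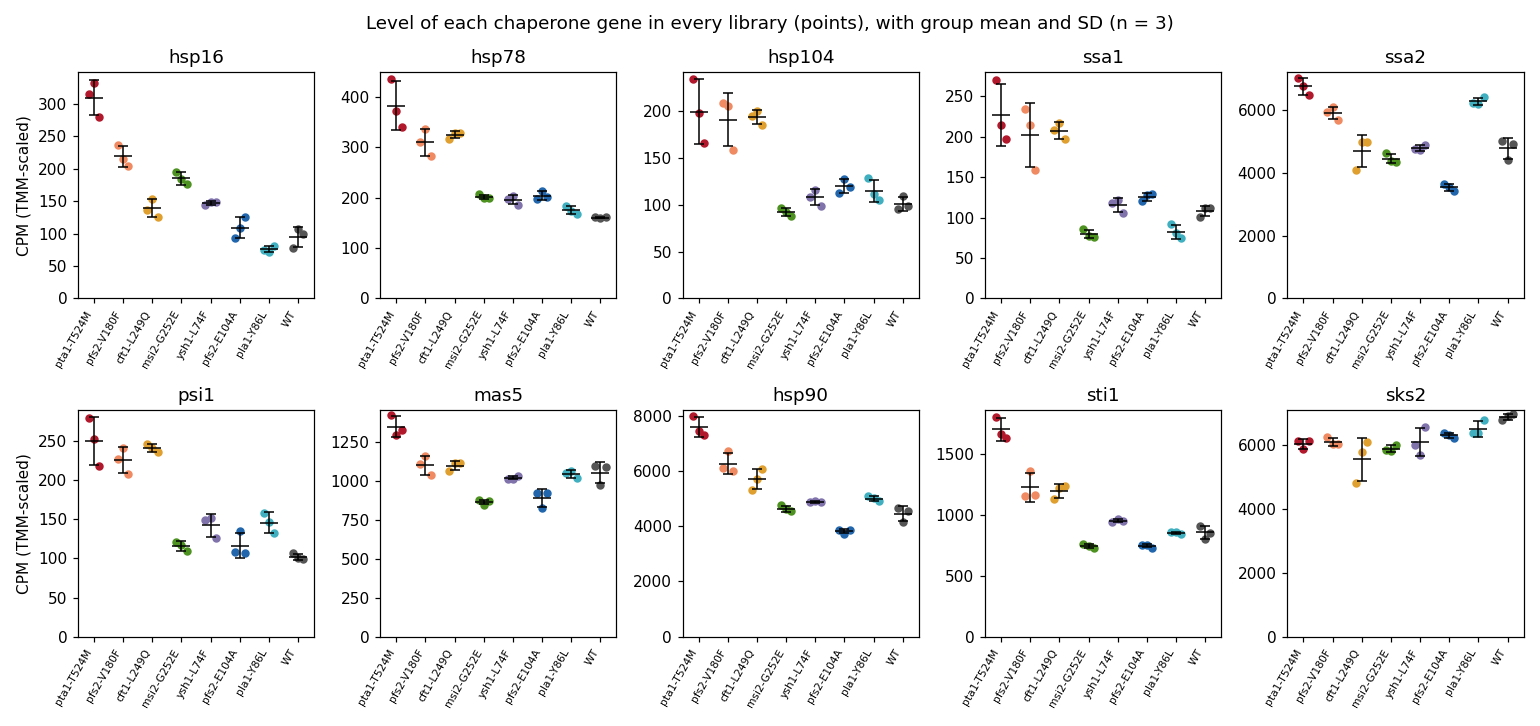
Level of each gene (panels) in CPM on a linear axis from 0, with 1 point for each library and the group mean and SD (n = 3), mutants from left to right and WT last. Levels are not corrected for gene length, so they are read across strains within a panel; hsp104, ssa1 and psi1 show a block of 3 high strains at the left, while ssa2 is high also in pla1-Y86L and sks2 is highest in WT.

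The cytosolic Hsp70 genes ssa1 and ssa2 did not follow each other. For ssa1, the libraries had 270.4, 214.4 and 197.1 CPM in pta1-T524M, 233.7, 215.1 and 158.3 CPM in pfs2-V180F, and 208.4, 217.6 and 196.8 CPM in cft1-L249Q. It was 86, 77.3 and 76.3 CPM in msi2-G252E, 117.8, 122.4 and 105.8 CPM in ysh1-L74F, 120.2, 127.8 and 129.2 CPM in pfs2-E104A, and 91.8, 80.4 and 75.2 CPM in pla1-Y86L. The WT libraries had 101.3, 112.1 and 111.5 CPM. The first 3 mutants and pfs2-E104A lay above WT without overlap, and msi2-G252E and pla1-Y86L below it without overlap. In pfs2-E104A ssa1 was 0.21 above WT on the log2 scale and not called (edgeR adjusted p = 0.15). With the test fitted to those 2 groups alone it was called (edgeR adjusted p = 0.015). The log2 fold changes of ssa1 were 1.07 ± 0.11 in pta1-T524M (edgeR adjusted p = 9.6e-08), 0.94 ± 0.11 in cft1-L249Q and 0.90 ± 0.11 in pfs2-V180F. They were -0.44 ± 0.12 in msi2-G252E (edgeR adjusted p = 0.0024) and -0.39 ± 0.12 in pla1-Y86L (edgeR adjusted p = 0.0048).

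For ssa2, the libraries had 7018.6, 6746.3 and 6455.7 CPM in pta1-T524M, 5930.6, 6073.6 and 5686.4 CPM in pfs2-V180F, and 6220.9, 6191.9 and 6387.3 CPM in pla1-Y86L. It was 4083.5, 4980.1 and 4972.3 CPM in cft1-L249Q, 4612.0, 4374.8 and 4352.6 CPM in msi2-G252E, and 4753.1, 4706.4 and 4889.6 CPM in ysh1-L74F, all overlapping the WT libraries at 4998.1, 4399.1 and 4917.4 CPM. The pfs2-E104A libraries, at 3633.6, 3547.6 and 3423.0 CPM, were the lowest. On the log2 scale ssa2 rose by 0.50 ± 0.06 in pta1-T524M (edgeR adjusted p = 1.9e-06), 0.31 ± 0.06 in pfs2-V180F (edgeR adjusted p = 0.00042) and 0.39 ± 0.06 in pla1-Y86L (edgeR adjusted p = 1.2e-05). In pfs2-E104A it fell, with a log2 fold change of -0.43 ± 0.06 (edgeR adjusted p = 2.3e-05). In cft1-L249Q ssa2 was -0.03 from WT (edgeR adjusted p = 0.75), in the strain where ssa1 was 1.92-fold higher. In pla1-Y86L ssa1 fell and ssa2 rose. The 2 genes are paralogs, and how reads matching both were counted was not stated in the labels, so their separate levels carry that uncertainty.

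The third Hsp70 gene, sks2, encodes a ribosome-associated Hsp70 that binds nascent chains. The libraries had 6127.2, 5874.5 and 6137.6 CPM in pta1-T524M, 4815.6, 5786.3 and 6109.6 CPM in cft1-L249Q, 5861.9, 5826.2 and 6009.6 CPM in msi2-G252E, and 6781.8, 6927.5 and 6976.7 CPM in WT. It was the only member with its highest mean in WT. It fell by 0.19 ± 0.06 on the log2 scale in pta1-T524M (edgeR adjusted p = 0.024), by 0.17 ± 0.06 in pfs2-V180F (edgeR adjusted p = 0.031), by 0.31 ± 0.06 in cft1-L249Q (edgeR adjusted p = 0.00057) and by 0.23 ± 0.06 in msi2-G252E (edgeR adjusted p = 0.0049), the last of which was -0.06 and not called when libraries were scaled by their totals alone. The calls in pta1-T524M and pfs2-V180F were lost when any 1 of the 6 libraries compared was left out, with edgeR adjusted p of 0.054 to 0.099. Values in ysh1-L74F, pfs2-E104A and pla1-Y86L were -0.18, -0.13 and -0.08 and were not called. No neighbouring pair of strains in the order of sks2 differed. The first cft1-L249Q library, at 4815.6 CPM, was the lowest of all 24 for sks2, and it was the lowest of its group for 6 of the 10 genes.

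Of the J proteins, psi1 had a clear block of high strains and mas5 changed little. Psi1 is the Sis1-type J protein that delivers substrates to Hsp70. Its libraries had 278.7, 252.1 and 217.3 CPM in pta1-T524M, 227.3, 240.7 and 207.4 CPM in pfs2-V180F, 246.3, 241.3 and 235.6 CPM in cft1-L249Q, and 106.4, 100.6 and 99.5 CPM in WT. The log2 fold changes of psi1 were 1.29 ± 0.09 in pta1-T524M (edgeR adjusted p = 2e-10), 1.14 ± 0.09 in pfs2-V180F and 1.24 ± 0.09 in cft1-L249Q. The psi1 gene was more than 2-fold higher in each, and no pair of the 3 strains passed the test for it, with log2 differences of 0.05 to 0.15. It was also higher in pla1-Y86L, by 0.51 ± 0.09 (edgeR adjusted p = 4.1e-05), and in ysh1-L74F, by 0.47 ± 0.09 (edgeR adjusted p = 0.0016).

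Mas5, the Ydj1-type J protein, had 1427.0, 1295.2 and 1332.1 CPM in pta1-T524M and 1094.6, 978.5 and 1093.0 CPM in WT. That rise of 0.36 ± 0.05 (edgeR adjusted p = 8.4e-06) was the only one of mas5 against WT with TMM factors, and with library totals alone mas5 was also higher in cft1-L249Q, by 0.19 (edgeR adjusted p = 0.0024). It fell in msi2-G252E, at 878.6, 848.7 and 870.8 CPM, with a log2 fold change of -0.28 ± 0.05 (edgeR adjusted p = 5.3e-05). In pfs2-E104A mas5 had 925.3, 827.3 and 922.8 CPM, with a log2 fold change of -0.24 ± 0.05 (edgeR adjusted p = 0.00086). Both mutants lay below all WT libraries.

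The genes for Hsp90 and its co-chaperone Sti1 were highest in pta1-T524M. For hsp90, the libraries had 7991.7, 7459.7 and 7306.7 CPM in pta1-T524M, 6095.0, 6712.0 and 6004.8 CPM in pfs2-V180F, and 5326.8, 5719.4 and 6073.0 CPM in cft1-L249Q. It was 4761.3, 4613.0 and 4541.7 CPM in msi2-G252E, 4860.5, 4919.2 and 4874.2 CPM in ysh1-L74F, 3878.4, 3736.0 and 3847.4 CPM in pfs2-E104A, and 5097.9, 5017.4 and 4898.9 CPM in pla1-Y86L. The WT libraries had 4665.8, 4170.1 and 4545.3 CPM. The pfs2-E104A libraries were all below WT, and the other mutants except msi2-G252E all above it. The log2 fold changes of hsp90 were 0.77 ± 0.06 in pta1-T524M (edgeR adjusted p = 3.3e-10), 0.49 ± 0.06 in pfs2-V180F and 0.35 ± 0.06 in cft1-L249Q. It fell by 0.22 ± 0.06 in pfs2-E104A (edgeR adjusted p = 0.0035). In pla1-Y86L it rose by 0.17 ± 0.06 (edgeR adjusted p = 0.012), and without WT replicate 2 by 0.12 (edgeR adjusted p = 0.086), which was not called.

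The sti1 mRNA had 1809.5, 1668.7 and 1634.4 CPM in pta1-T524M, 1158.1, 1363.9 and 1163.2 CPM in pfs2-V180F, 1136.2, 1219.9 and 1239.6 CPM in cft1-L249Q, and 912.0, 803.6 and 856.6 CPM in WT. It rose by 0.99 ± 0.06 in pta1-T524M (edgeR adjusted p = 2.7e-12), 0.52 ± 0.06 in pfs2-V180F (edgeR adjusted p = 8.6e-08) and 0.48 ± 0.06 in cft1-L249Q (edgeR adjusted p = 3.4e-07). All 9 mutant libraries were above WT. In both msi2-G252E and pfs2-E104A it fell, with a log2 fold change of -0.20 ± 0.06 (edgeR adjusted p = 0.0043 and 0.0078). Both of these calls were lost without WT replicate 1, where the values were -0.14 and -0.15, and with library totals alone the value in msi2-G252E was -0.02 and not called.

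The 3 strains with the broadest rises differed among themselves in some genes and not in others. Compared with pfs2-V180F, pta1-T524M had higher levels of hsp16, hsp78, ssa2, sti1, hsp90 and mas5, 6 of the 10 genes, and none lower; of all genes, 24.5% were called higher and 24.4% lower. The same 6 genes were higher in pta1-T524M than in cft1-L249Q, and none lower, against 18.6% and 19.9% of all genes. The sti1 level in pta1-T524M was 0.47 ± 0.06 above pfs2-V180F and 0.51 ± 0.06 above cft1-L249Q on the log2 scale (edgeR adjusted p = 2.5e-07 and 1.5e-07). For hsp104, ssa1 and psi1, neither comparison passed the test, with log2 differences of 0.04 to 0.17 and standard errors of about 0.1. Set directly against cft1-L249Q, pfs2-V180F had higher hsp16 and ssa2, by 0.66 ± 0.10 and 0.33 ± 0.06 (edgeR adjusted p = 6e-05 and 0.00072), and no gene was lower. Of all genes, 10.5% were called higher and 9.51% lower in that pair. The cft1-L249Q strain differs from both of the others in mating type and marker as well, which cannot be told apart from the mutations here.

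Set against the mean of the other 6 mutants, which leaves WT out, the same 3 strains had most genes higher. In pta1-T524M 9 genes were higher and none lower, where 25.1% of all genes were called higher and 24.8% lower. In pfs2-V180F it was 8 and none, against 22.4% and 20.6%. In cft1-L249Q 6 were higher, and ssa2 and sks2 lower, against 20.1% and 15.7%. The median log2 differences of the 10 genes were 0.64, 0.35 and 0.20 in these 3 strains. The sti1 gene in pta1-T524M, at 0.87 ± 0.04, had the lowest adjusted p of the 10 (edgeR adjusted p = 4e-14).

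The other 4 mutants were mostly below the mean of the rest, which in each case included pta1-T524M, pfs2-V180F and cft1-L249Q. These calls therefore partly restate the high levels in those strains. Some genes lower here were called higher than WT: hsp78 in msi2-G252E, ysh1-L74F and pfs2-E104A, psi1 in ysh1-L74F and pla1-Y86L, and hsp90 in pla1-Y86L. In msi2-G252E 8 genes were lower and 1, hsp16, higher, against 29.7% and 30.1% of all genes. In ysh1-L74F 6 were lower and none higher, against 16.4% and 18.6%. In pfs2-E104A 8 were lower and none higher, against 22.8% and 25.9%. In pla1-Y86L 7 were lower, and ssa2 and sks2 higher, against 35.6% and 35.8%. The largest of these differences was hsp16 in pla1-Y86L, at -1.20 ± 0.09 (edgeR adjusted p = 2.4e-11). These 7 contrasts share libraries with each other, so their counts are not independent.

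In direct comparison, pta1-T524M also had 8 of the 10 genes higher than pla1-Y86L, 9 higher than msi2-G252E and 9 higher than pfs2-E104A, and none lower. Of all genes, 65.4%, 56.2% and 45.1% were called in these pairs, counted in either direction. These shares are not split by direction as the counts of the 10 genes are, so the share called higher is smaller.

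The 2 alleles of pfs2, which share marker and mating type, differed in 9 of the 10 genes, all higher in pfs2-V180F than in pfs2-E104A. Of all genes, 19.6% were called higher and 18.6% lower in that comparison, and the median log2 difference was 0.70 for the 10 genes against -0.00538 for all genes. The hsp16 gene was 1.00 ± 0.10 higher on the log2 scale (edgeR adjusted p = 6.4e-08), with 204.0 to 237.1 CPM in pfs2-V180F and 93.7 to 126.1 CPM in pfs2-E104A. Expression of ssa2 was 0.74 ± 0.06 higher (edgeR adjusted p = 5.7e-09), with 5686.4 to 6073.6 CPM in pfs2-V180F and 3423.0 to 3633.6 CPM in pfs2-E104A. That difference exceeded the one between pfs2-V180F and WT, since ssa2 was below WT in pfs2-E104A. The differences for the other 7 called genes ran from 0.31 for mas5 to 0.95 for psi1. The exception, sks2, was 0.05 lower in pfs2-V180F (edgeR adjusted p = 0.62).

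Ratios between 2 genes within a library do not depend on the scaling between libraries, and were compared between strains as a description. The log2 ratio of ssa1 to ssa2 was -4.90 ± 0.18 (SD, n = 3) in pta1-T524M, -4.88 ± 0.26 in pfs2-V180F, -4.49 ± 0.18 in cft1-L249Q and -4.81 ± 0.10 in pfs2-E104A. It was -5.80 ± 0.05 in msi2-G252E, -5.38 ± 0.14 in ysh1-L74F, -6.25 ± 0.16 in pla1-Y86L and -5.46 ± 0.17 in WT. The mean ratio thus spanned from cft1-L249Q to pla1-Y86L, which lay on either side of WT. The log2 ratio of sti1 to hsp90 was -2.16 ± 0.01 in pta1-T524M, -2.63 ± 0.01 in msi2-G252E, -2.55 ± 0.01 in pla1-Y86L and -2.38 ± 0.03 in WT. The ratio of hsp16 to hsp104 was 1.00 ± 0.01 in msi2-G252E, -0.49 ± 0.09 in cft1-L249Q and -0.11 ± 0.17 in WT on the same scale.

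**Figure D3:**
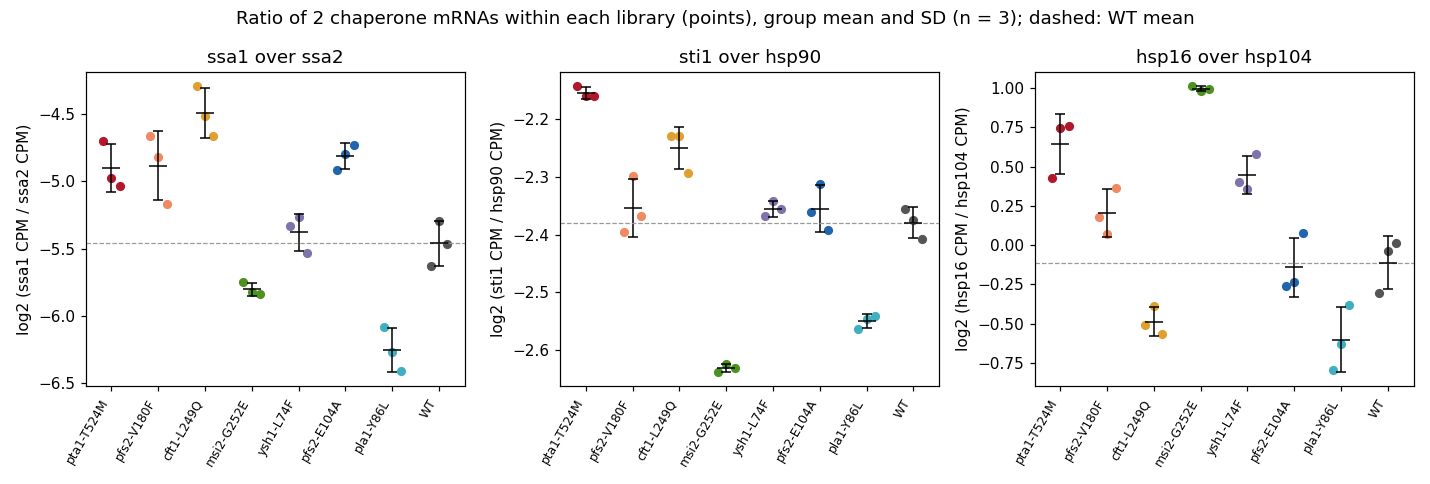
Log2 ratio of 2 chaperone mRNAs within each library (points) with the group mean and SD (n = 3), mutants from left to right and WT last, with the WT mean dashed. The ratio of ssa1 to ssa2 is lowest in pla1-Y86L at -6.25, that of sti1 to hsp90 is lowest in msi2-G252E at -2.63, and that of hsp16 to hsp104 is highest in msi2-G252E at 1.00; heights are compared between strains, not between panels.

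Across the 8 group means, 17 of the 45 pairs among the 10 genes had a Pearson correlation above 0.8. The highest were sti1 with hsp90, at 0.95, hsp104 with psi1, at 0.95, and hsp104 with ssa1, at 0.94. The paralogs ssa1 and ssa2 had 0.30. The 8 negative values all involved sks2, with hsp78 at -0.68 the lowest. These are descriptions over 8 points, WT among them, and carry no test. Whether growth or library preparation added to them was not tested. In some groups single libraries were high or low for many members at once. The first pta1-T524M library was the highest of its group for 8 genes and the third the lowest for 8. The third pfs2-V180F library was lowest for 9, and the first msi2-G252E library was highest for 9. In pfs2-E104A, by contrast, the 3 libraries were highest for 5, 3 and 2 genes and lowest for 4, 2 and 4. Such ranks were not counted over all genes.

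Outside the 10 genes, several Hsp90 co-chaperone genes rose in the strains with higher hsp90. Of Hsf1 and 7 Hsp90 co-chaperone genes, 6 were higher and 1 lower in pta1-T524M, and 4 higher and 1 lower in pfs2-V180F. In cft1-L249Q 5 were higher and none lower, and in ysh1-L74F 3 and none. There were 3 higher and 3 lower in both msi2-G252E and pla1-Y86L, and 2 of each in pfs2-E104A. With library totals alone the counts were 8 higher and none lower in cft1-L249Q, 5 and 2 in msi2-G252E, and 4 and 1 in pla1-Y86L. The list's median log2 fold change was 0.31 in pta1-T524M and between -0.04 and 0.16 in the others (0.34 and between 0.03 and 0.27 with library totals). In pta1-T524M the cyclophilin gene wis2 was 0.96 ± 0.05 higher on the log2 scale, aha1, the activator of the Hsp90 ATPase, 0.88 ± 0.04, and the p23 gene wos2 0.81 ± 0.04 (edgeR adjusted p at most 4.5e-13). The aha1 gene fell in msi2-G252E, by 0.51 ± 0.04 (edgeR adjusted p = 1.6e-09), and in pfs2-E104A, by 0.27 ± 0.04 (edgeR adjusted p = 9.6e-05), the mutants in which sti1 also fell. In pla1-Y86L aha1 fell by 0.16, a call lost with library totals alone, and sti1 was not called. With TMM factors the mRNA of Hsf1 itself was not called higher in any mutant and was called lower in 4. With library totals alone it was called lower in pla1-Y86L only, and called higher in cft1-L249Q, by 0.12 on the log2 scale (edgeR adjusted p = 0.0097). It averaged 158.8 ± 3.68 CPM in pta1-T524M, 155.7 ± 1.18 CPM in pfs2-V180F, 169.9 ± 4.66 CPM in cft1-L249Q, and 170.8 ± 3.56 CPM in WT (SD, n = 3 each). It fell in pla1-Y86L, at 141.7 ± 3.06 CPM, with a log2 fold change of -0.27 ± 0.03 (edgeR adjusted p = 5.8e-08). An mRNA level does not show the activity of the factor.

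Among 8 Hsp70 partner genes tested, the nucleotide exchange factor gene fes1 stood with the 10 genes. It was 1.16 ± 0.06 higher on the log2 scale in pta1-T524M (edgeR adjusted p = 2.3e-12), 0.76 ± 0.06 in pfs2-V180F, 0.73 ± 0.06 in cft1-L249Q, 0.41 ± 0.07 in pla1-Y86L and 0.29 ± 0.06 in ysh1-L74F. The Hsp110 gene pss1 was 0.47 ± 0.05 higher in pta1-T524M (edgeR adjusted p = 6.7e-08) and 0.21 lower in msi2-G252E, where it was 0.04 lower and not called with library totals alone. The list as a whole had 3 genes higher and 1 lower in pta1-T524M, 1 and 1 each in pfs2-V180F, cft1-L249Q and pfs2-E104A, 1 and 4 in msi2-G252E (4 and 0 with library totals alone), 1 and 0 in ysh1-L74F, and 1 and 2 in pla1-Y86L. With library totals alone it was also 4 and 1 in pla1-Y86L and 3 and 0 in cft1-L249Q. Its median log2 fold change lay between -0.10 and 0.05. Outside pta1-T524M and msi2-G252E, the counts of this list with TMM factors were near or below the shares of all genes. The ribosome-associated ssz1 and zuo1, whose products work with Sks2-type Hsp70, were not called higher in any mutant with TMM factors, and with library totals alone both were called higher in pla1-Y86L, by 0.13 and 0.16 on the log2 scale.

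The 6 mitochondrial chaperone genes moved in opposite directions in different mutants. In pta1-T524M 4 were higher and 1 lower, while in pla1-Y86L 5 fell, and in msi2-G252E 6 fell with TMM factors but 2 with library totals alone. The median log2 fold change was 0.38 in pta1-T524M, -0.34 in pla1-Y86L, -0.20 in msi2-G252E (-0.03 with library totals) and between -0.09 and 0.11 in the others. The chaperonin gene hsp60 was 0.38 ± 0.04 higher in pta1-T524M (edgeR adjusted p = 2.7e-07), -0.38 ± 0.04 in msi2-G252E (edgeR adjusted p = 8.9e-08) and -0.48 ± 0.04 in pla1-Y86L (edgeR adjusted p = 1.8e-09) on the log2 scale. In msi2-G252E the mitochondrial disaggregase gene hsp78 rose while hsp60 and the mitochondrial J protein gene mdj1 fell by 0.38 each on the log2 scale. Elsewhere, 2 rose in pfs2-V180F, 3 in cft1-L249Q and 1 in ysh1-L74F with none lower, and in pfs2-E104A 1 rose and 2 fell. With library totals alone 4 were higher in pfs2-V180F, 5 in cft1-L249Q and 3 in ysh1-L74F.

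**Figure D4:**
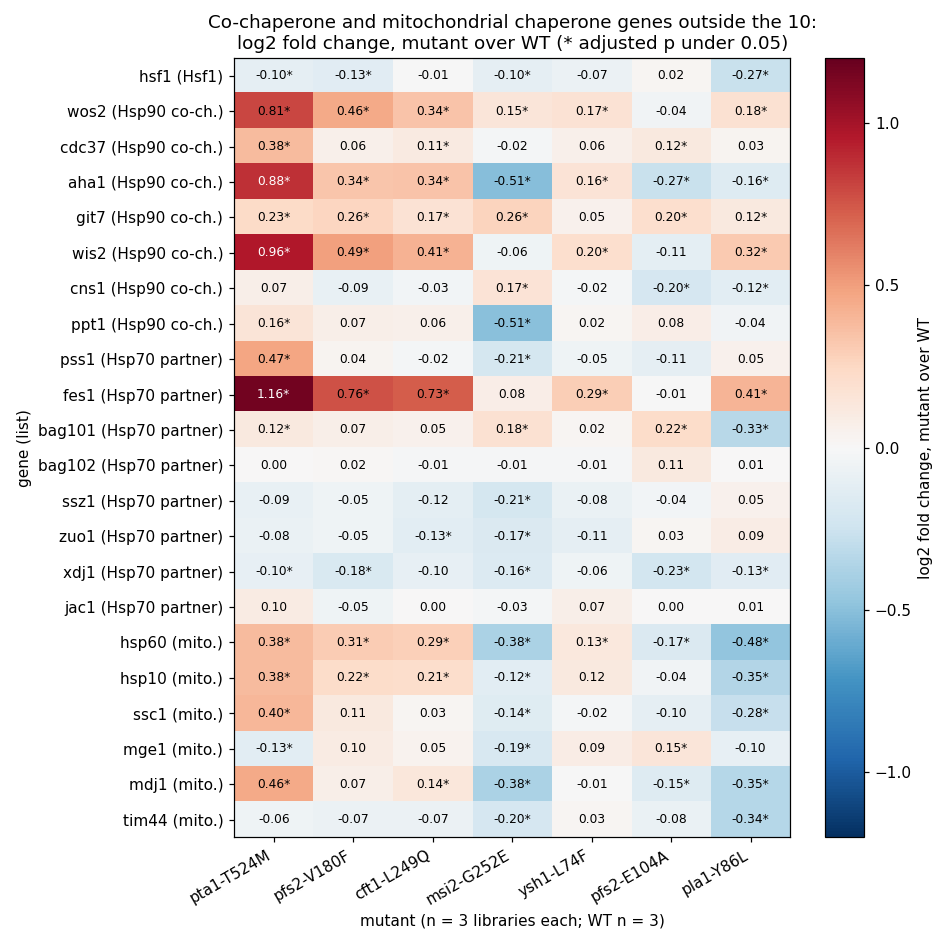
Log2 fold change over WT of Hsf1, Hsp90 co-chaperone, Hsp70 partner and mitochondrial chaperone genes (rows) in each mutant (columns), red higher and blue lower, with an asterisk at an adjusted p under 0.05. In pta1-T524M fes1, wis2, aha1 and wos2 stand at 1.16, 0.96, 0.88 and 0.81, and the mitochondrial rows at the bottom are blue in msi2-G252E and pla1-Y86L, where 6 and 5 genes were called lower with TMM factors against 2 and 5 with library totals alone.

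Genes of the endoplasmic reticulum chaperone list, which also holds the oxidase gene ero11, rose in part. Of the 6 tested, 4 were higher in each of pta1-T524M, pfs2-V180F and cft1-L249Q, with 0, 1 and 1 lower. The count was 2 higher and 4 lower in msi2-G252E (2 and 1 with library totals alone), 1 and 1 in both ysh1-L74F and pfs2-E104A, and 1 and 2 in pla1-Y86L. With library totals alone 2 were higher in ysh1-L74F and 3 in pfs2-E104A, with none lower. Their median log2 fold change was 0.26 in pta1-T524M, -0.15 in msi2-G252E (0.02 with library totals) and between -0.05 and 0.14 in the others. The oxidase gene ero11 rose in all 7 mutants, from 0.16 ± 0.04 in pfs2-E104A to 0.59 ± 0.04 in pta1-T524M. Calnexin (cnx1) rose by 0.48 ± 0.04 in pta1-T524M (edgeR adjusted p = 1.3e-09). The 10 genes of the CCT chaperonin and prefoldin, which fold actin and tubulin, had more calls lower than higher in 5 mutants with TMM factors, and in 1 mutant, pfs2-V180F, with library totals alone. They had 1 gene higher and 1 lower in pta1-T524M, 1 and 5 in both pfs2-V180F and cft1-L249Q, 1 and 8 in msi2-G252E, 0 and 3 in ysh1-L74F, 1 and 1 in pfs2-E104A, and 3 and 4 in pla1-Y86L. Their median log2 fold change lay between -0.16 in msi2-G252E and 0.02 in pta1-T524M, and with library totals between -0.05 and 0.06. The 3 higher and 4 lower in pla1-Y86L were near the shares of all genes there, 32.2% and 32.4%. The one higher in pta1-T524M, pfs2-V180F, cft1-L249Q, msi2-G252E and pfs2-E104A was the prefoldin gene bob1, at 0.28 to 0.54, and cct7 fell most, by 0.61 ± 0.04 in msi2-G252E (edgeR adjusted p = 3.7e-12).

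Further stress genes followed the order of the strains for the 10 genes only in part. Of 7 other small heat shock and DJ-1 family genes, 3 rose in pta1-T524M, 4 in pfs2-V180F, 5 in cft1-L249Q and 2 in ysh1-L74F, with none lower. In msi2-G252E 6 rose and 1 fell, in pfs2-E104A 1 rose and 2 fell, and in pla1-Y86L 4 rose and 1 fell. The median log2 fold change of that list ran from 0.02 in pfs2-E104A to 0.39 in pta1-T524M, with 0.34 in msi2-G252E. The small heat shock gene hsp20 was 0.70 ± 0.06 higher in pta1-T524M (edgeR adjusted p = 1.7e-09). Among the core environmental stress genes, 12 in number, 7 were higher and 2 lower in both pta1-T524M and msi2-G252E, 8 and 1 in cft1-L249Q, and 7 and 3 in pfs2-V180F. The counts were 3 and 1 in ysh1-L74F, 3 and 4 in pfs2-E104A, and 5 and 5 in pla1-Y86L. With library totals alone they were 10 and 1 in msi2-G252E and 6 and 3 in pla1-Y86L. The core stress list had a median log2 fold change of 0.27 in pta1-T524M, 0.53 in cft1-L249Q and 0.26 in msi2-G252E. The glutathione S-transferase gene gst2 rose by 3.08 ± 0.09 in pta1-T524M (edgeR adjusted p = 1.8e-17), 2.18 ± 0.08 in msi2-G252E and 1.78 ± 0.08 in pla1-Y86L, in which hsp16 was lower than in WT.

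The genes whose pattern across the 8 groups was most like the mean profile of the 10 were looked for among 1742 others with a mean of at least 10 CPM and a range of at least 0.5 on the log2 scale. By Pearson correlation over the 8 group means they were fes1 (0.97), wis2 (0.96), wos2 (0.95), ubx3 (0.94), wss2 (0.94), aha1 (0.94), cnx1 (0.92), mug35 (0.91), slt1 (0.91) and SPBC30D10.14 (0.90). Of these 10, 5 are in the chaperone lists above. How many list genes were among the 1742 was not counted, so that number has no share to be read beside. The least like were cig1 (-0.92), mfs3 (-0.91), ght8 (-0.86), pof15 (-0.85) and nth1 (-0.84). For hsp16 alone, the nearest patterns were those of SPNCRNA.1087 (0.90), vip1 (0.90), SPBPB2B2.05 (0.90), SPNCRNA.1337 (0.89), hsp20 (0.89) and egt1 (0.85).

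Genes that overlap a member bear on its count, since the labels do not state whether the authors' counting used strand. By the annotation of a later assembly, SPNCRNA.811 lies antisense to ssa1. It had 3, 2 and 0 reads in the pla1-Y86L libraries, 6, 7 and 9 in msi2-G252E, and 22, 14 and 18 in WT. Its fitted log2 fold change was -1.33 ± 0.36 in msi2-G252E (edgeR adjusted p = 0.0029), and both mutants had lower ssa1 as well. It was 0.01, 0.07 and 0.12 from WT in pta1-T524M, pfs2-V180F and cft1-L249Q, where ssa1 rose, and -0.705 in ysh1-L74F (edgeR adjusted p = 0.14), where ssa1 was not called. With at most 27 reads in any library, it was small beside ssa1. The ppe1 gene overlaps ssa2 on the same strand, and alg12 overlaps mas5 on the other, with log2 fold changes between -0.32 and 0.19 in the 7 mutants. Further antisense RNAs are annotated over hsp78, hsp104, ssa1, ssa2, sti1, psi1, mas5 and sks2. They are absent from the count table, so their levels are not known here.

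In the authors' deposited tables of each mutant against WT, from DESeq2, 68 of the 70 calls for the 10 genes were the same as here. The log2 fold changes differed by at most 0.008. The 2 others were sks2 in pfs2-E104A and ysh1-L74F, which the authors' deposited tables give as lower, at -0.14 and -0.18 (their adjusted p = 0.038 and 0.0074).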

How the data were processed

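Libraries of polyA+ RNA were directional and read from both ends, per the labels' protocols. The values the authors deposited are raw counts of reads per gene. Per the submitters' processing notes, the genome build was ASM294v2 and the tools named are HISAT2 2.1.0, SAMtools, HTSeq 0.10.0 and DESeq2. The authors' deposited comparison tables hold, per the file headers, a mean normalised signal (baseMean), log2 fold changes and p-values. The counts were fitted here with edgeR 4.0.16 (R 4.3.3, limma 3.58.1): filterByExpr, TMM scaling, and a quasi-likelihood fit with 1 mean per group over 24 libraries. Adjustment was by Benjamini-Hochberg over 6287 genes, with calls at an adjusted p under 0.05. DESeq2 1.42.0 was an alternative, and the steps were tested on simulated data. The 24 replicate pairs had a chi-square per degree of freedom of 2.6 to 23.8, above sampling noise, so no libraries were merged. P-values measure the spread between these biological replicates as labelled.

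The 10 genes, 7 gene lists, tests and alternatives were chosen with earlier results of these data known. All 10 genes are named. From the lists, up to 3 called genes with the largest absolute log2 fold change per list and comparison may be named, and hsf1, aha1, ssz1 and zuo1 are named also where that rule did not choose them, after their values were seen. Of 61 list symbols, 4 were not matched and were not analysed here. The annotation at hand belongs to assembly ASM294v3, so coordinates, gene lengths and sequences were left out. It gave names and neighbours for 6836 of 6988 identifiers. Log2 levels for likeness used a prior count of 2.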

Additional observations from a re-analysis of the deposited data

Results flagged for a closer look

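Some genes moved in opposite directions from WT in different mutants, with the difference between the mutants tested directly in the edgeR fit with adjustment over all genes. The widest was hsp16, higher than WT in pta1-T524M and lower in pla1-Y86L, with a log2 difference of 2.03 ± 0.10 between them (edgeR adjusted p = 1.7e-13). The pta1-T524M libraries had 280.1 to 332.3 CPM and the pla1-Y86L libraries 71.9 to 80.9 CPM, and 65.4% of all genes were called in that pair. Those strains also differ in the place of the marker. For ssa1 the difference between pta1-T524M and msi2-G252E was 1.51 ± 0.11 (edgeR adjusted p = 1.6e-10), and for mas5 0.64 ± 0.05 (edgeR adjusted p = 3.7e-10), with 56.2% of all genes called. Against pfs2-E104A, pta1-T524M was higher by 0.93 ± 0.06 for ssa2 (edgeR adjusted p = 5.9e-11), 1.19 ± 0.06 for sti1 (edgeR adjusted p = 1.1e-13) and 0.99 ± 0.06 for hsp90 (edgeR adjusted p = 2.4e-12), where 45.1% of all genes were called. In each pair every library of pta1-T524M lay above every library of the other mutant for these genes. The hsp16 level in pla1-Y86L overlapped WT, and its fall was not called without WT replicate 2 (-0.22, edgeR adjusted p = 0.086). The fall of sti1 in pfs2-E104A was not called without WT replicate 1 (-0.15, edgeR adjusted p = 0.064). Each pair held the highest and lowest group for its gene, chosen from these same data. That choice favours a low p-value and separate library ranges, and the adjustment does not allow for it. The p-value of a pair also does not measure the fall from WT.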

How the results depend on the processing

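No called difference of the 10 genes from WT, or between the pfs2 alleles, changed direction under the settings tried. Of the 80 differences 55 were called. Size factors from DESeq2 and no filter on low counts kept all 55 and gained none. DESeq2 kept 55 and gained 2, and a fit to the 2 groups alone kept 55 and gained 5. Over the fits that leave out 1 library, 314 of 330 calls were kept, 16 lost and 4 gained. The number of the 10 genes called in ysh1-L74F was 3, against 5 by DESeq2 and 5 with library totals alone. In pfs2-E104A it was 5, against 8 with the 2 groups alone. In pla1-Y86L it was 5, and 3 to 5 when a library was left out. Library totals with no scaling factor, chosen after seeing the data, kept 53, lost 2 and gained 7. They moved the median of all genes by 0.17 in msi2-G252E and 0.13 in cft1-L249Q on the log2 scale, and by at most 0.0867 in the others. With them, 60.6 to 88.1% of all called genes were higher in the 7 mutants, against 48.6 to 52.9% before. Under them the fall of sti1 in msi2-G252E was -0.02 and that of sks2 -0.06, neither called, and the cause was not tested. With the replicate number as a block, 3 calls were gained and none lost: psi1 in msi2-G252E (0.18, adjusted p = 0.022), hsp104 in pfs2-E104A (0.24, adjusted p = 0.032) and psi1 there (0.18, adjusted p = 0.036). The correlations between libraries that share a number had a median of 0.0157 over 84 pairs and ran from -0.103 to 0.211, so they were not all above 0.1 and the numbers were not taken as pairs. Between libraries of different groups and numbers the median was -0.00832. As a hint from the data, 14 of 24 libraries, not all, had their highest mean correlation with the libraries of their own number in the other groups. Whether libraries of the same number shared a step of preparation was not tested. A planned count of promoter motifs was not run, since no promoter sequence of the files' build was used.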
